A study of Mus musculus with 18 samples.

Results

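The 39 genes described here encode enzymes that oxidise, conjugate and clear foreign and reactive compounds, the genes that make and use glutathione, and the transcription factor NRF2 with its inhibitor KEAP1 and its best-known targets. They were chosen by gene name from the 57180 genes of the count table and were followed in all 6 groups of the study. Earlier results of these data were known when the list was drawn up. Its shares beside those of all genes are therefore descriptive and not independent support. Of the 39, 38 passed the low-count filter. The exception was Mgst2, which encodes a membrane-bound glutathione transferase and held 1 to 12 counts per library. The cells were smooth muscle cells isolated from the thoracic aorta of C57BL/6 mice. All had been transfected, either with a scramble siRNA that has no intended target or with an siRNA against Itgav, the gene of integrin αV. Each of these arms was left unstimulated, stimulated with TGF-β, or stimulated with PDGF-BB, with 3 libraries in each of the 6 groups. The sources used here do not give doses, times, siRNA sequences or the ages of the mice, and the labels name 1 Itgav siRNA arm, so loss of integrin αV cannot be told apart from other effects of that siRNA.

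Cells deal with reactive chemicals in stages. Oxidising enzymes such as the cytochrome P450s, flavin monooxygenases, aldehyde dehydrogenases and monoamine oxidases change the compound, and transferases then attach glutathione or a sugar acid so that it can be exported. NRF2 is held in the cytoplasm and sent for degradation by KEAP1. When oxidants or electrophiles modify KEAP1, NRF2 enters the nucleus, pairs with small MAF proteins and binds antioxidant response elements near genes for glutathione synthesis, quinone reduction and haem breakdown. In the vessel wall this system is known for protecting smooth muscle against oxidant stress.

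Values are CPM, counts scaled to 1000000 per library after TMM normalisation, and a log2 fold change is followed by its standard error. A gene is called where edgeR's quasi-likelihood test gave a Benjamini-Hochberg adjusted p under 0.05 over all 15832 genes tested. Library totals ran from 17705072 to 21592916 counts. Itgav itself stood at 300.2, 326 and 323 CPM in unstimulated scramble libraries and at 14.8, 14.1 and 16.4 CPM with its siRNA. It stood at 472 to 553 against 25.3 to 29.7 CPM under TGF-β, and at 307 to 336 against 19.1 to 25.5 CPM under PDGF-BB, so every library matched its siRNA label. All 7 smooth muscle markers were measured, and their summed level was 2078 to 2128 CPM in unstimulated scramble libraries, 6612 to 7164 CPM with TGF-β and 955 to 981 CPM with PDGF-BB. With Itgav siRNA the same sum was 989.6 to 1108 CPM unstimulated, 3240.3 to 3401 CPM with TGF-β and 374 to 383 CPM with PDGF-BB. Because many of these genes are known from liver, 5 hepatocyte markers were read as well. None passed the low-count filter, their sum never exceeded 0.244 CPM in a library, and Cyp3a11 was at 0 in all 18. Libraries of a group were compared over the tested genes, leaving out those with few counts in the 2 libraries together. Scramble TGF-β replicate 3 differed more from replicates 1 and 2 than these did from each other. The values were 6.31 and 8.68 against 2.98, as chi-square divided by its degrees of freedom. Scramble PDGF-BB replicate 1 likewise differed from replicates 2 and 3 at 12.6 and 9.24, against 5.92 between those. Without the former library 32 of the 38 genes described here fell and 2 rose with TGF-β in scramble cells, and without the latter 8 rose and 15 fell with PDGF-BB, where all libraries gave 31 and 2, and 11 and 15. Scramble unstimulated replicate 1 also differed more from replicates 2 and 3 (5.23 and 5.13) than these did from each other (2.22). For Itgav siRNA PDGF-BB replicate 1 these values were 6.57 and 6.28 against 4.08. Whether the 3 libraries of a group came from separate cultures is not stated in the labels, and p-values therefore reflect only how far these libraries differ, which may be technical variation.

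The unstimulated scramble cells used some of these genes heavily. Per kilobase of exon, Ephx1, the microsomal epoxide hydrolase, was highest of the 39 at 575 CPM, followed by Cyp1b1, a cytochrome P450 that oxidises oestradiol and polycyclic hydrocarbons, at 256 CPM and the mu class glutathione transferase Gstm2 at 192 CPM. Maoa, Gstp1 and Aldh2 followed at 96.3, 94.5 and 80.6 CPM per kilobase. On the same scale Nfe2l2, the gene of NRF2, was at 23.3 CPM, Keap1 at 13.4 CPM and Hmox1 at 45.4 CPM. Ugt1a6a was at 3.21 CPM, Fmo1 at 0.502 CPM and Mgst2, the lowest, at 0.0772 CPM. These per-length levels rest on the merged exons of the reference annotation, so a gene whose cells use a short isoform reads low.

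TGF-β lowered most of these genes. In scramble cells 31 of the 38 fell and 2 rose, Nqo1 and Gsto1, against a background of 24.8% of all tested genes lower and 23.4% higher, or 48.3% in either direction. The median log2 fold change of the 38 was -0.50, beside -0.01 over all genes tested, and the libraries of the groups did not overlap for 33 of them, as for 55% of all genes. The fall was at least 2-fold for 11 of the 38, or 28.9%, beside 6.8% of all genes. In cells with Itgav siRNA the response to TGF-β was measured in other libraries and was again mostly a fall, with 32 lower and 3 higher against backgrounds of 29.6% and 27.9%, or 57.5% in all. The groups did not overlap for 36 of the 38, as for 64.6% of all genes. The third gene to rise there was Txnrd1, which encodes cytosolic thioredoxin reductase. Called falls occurred in both arms for 30 of the 38 genes, or 78.9%, beside 19.4% of all genes.

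PDGF-BB split the group. In scramble cells 11 of the 38 rose and 15 fell, where 16.9% of all genes rose and 19.2% fell, or 36.1% in either direction, and the median log2 fold change was -0.03. The libraries did not overlap for 27 of the 38, beside 44.1% of all genes. In Itgav siRNA cells 15 rose and 12 fell, against 17.2% and 19.2% of all genes, or 36.4% in all, and 34 of the 38 did not overlap, beside 48.2%. Both arms called 8 genes higher and 12 lower with PDGF-BB, which is 21.1% and 31.6% of the 38 beside 8.45% and 10.5% of all genes. Of the 8, the scramble calls of Aldh3a2, Aox1 and Nfe2l2 and the siRNA-arm call of Aldh3a2 ended without at least 1 library. Of the 12, the siRNA-arm calls of Maob and Fmo5 did so. TGF-β and PDGF-BB share their unstimulated libraries, so the treatments were also compared directly in scramble cells. There 31 of the 38 were lower with TGF-β than with PDGF-BB and 2 were higher, Nqo1 and Gclm, against backgrounds of 29% lower and 28% higher, or 56.9% in all. Here 30 of the 38 did not overlap, beside 58.7%.

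Itgav siRNA raised one set of these genes and lowered another, and the same genes were often called in each medium. In unstimulated cells 17 of the 38 rose and 11 fell, against 25.9% and 27.5% of all genes, or 53.4% in all, and 30 did not overlap, beside 61.4%. Under TGF-β 11 rose and 16 fell, against 24.1% and 24.3%, or 48.4% in all, and 30 did not overlap, beside 55.6%. Under PDGF-BB 19 rose and 10 fell, against 29.4% and 29.9%, or 59.3% in all, and 29 did not overlap, beside 61.9%. The 3 comparisons use different libraries. Called higher in all 3 media were 11 genes, or 28.9% of the 38 beside 12.9% of all genes, namely Aldh3a1, Fmo2, Gclc, Gclm, Gsta4, Gstm1, Hmox1, Nfe2l2, Por, Srxn1 and Ugt1a6a. Called lower in all 3 were 9 genes, or 23.7% beside 14.9%, namely Aldh3a2, Aldh3b1, Aldh7a1, Cyp1b1, Ephx1, Gstm2, Gstm5, Gsto1 and Mgst3. The siRNA effect was not called in any medium for Aldh2, Fmo1, Fmo5, Gstm4 and Keap1. Of the 11 genes called higher in all 3, the TGF-β calls of Aldh3a1 and Gclm ended without at least 1 library.

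**Figure D1:**
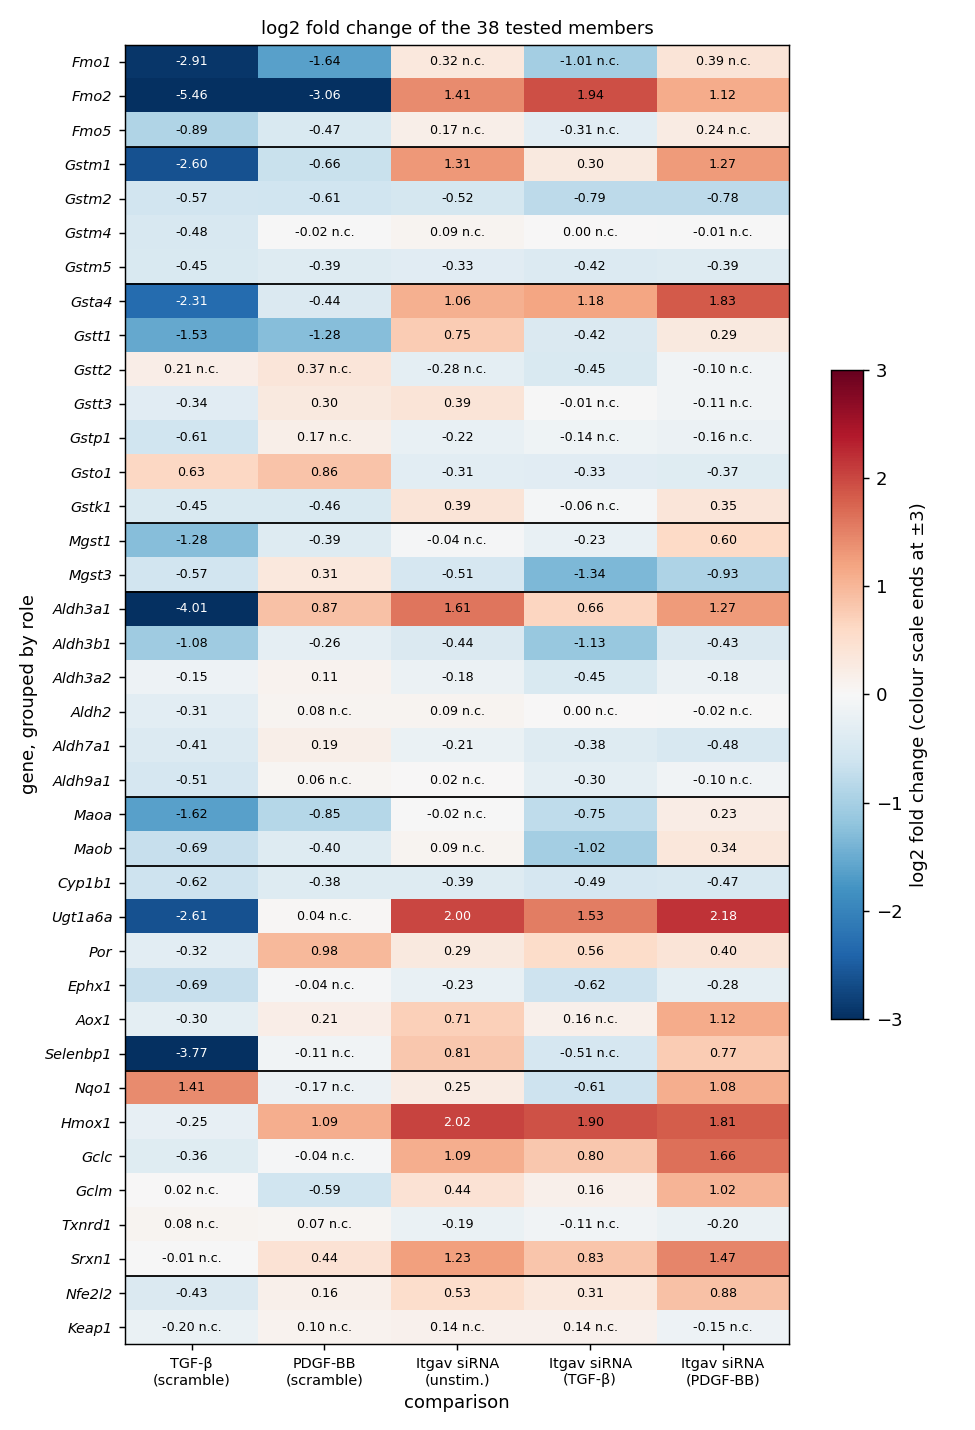
Heat map of the log2 fold change of the 38 tested genes (rows, grouped by role) in 5 comparisons (columns), with the value printed in each cell and n.c. where edgeR's adjusted p was 0.05 or more. The TGF-β column is mostly blue, with 31 genes lower and 2 higher, while the 3 siRNA columns mix red and blue rows.

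Markers of other cell types moved over the same groups. All 10 adventitial fibroblast markers were measured, with a sum of 1221 to 1294 CPM in unstimulated scramble libraries, 943 to 1023 CPM with TGF-β and 1447 to 1536 CPM with PDGF-BB. With Itgav siRNA that sum was 1540.1 to 1609 CPM unstimulated, 849.5 to 905 CPM with TGF-β and 1626 to 1824 CPM with PDGF-BB. Of 7 mesothelial markers 6 passed the low-count filter. The sum of all 7 was 155 to 166 CPM in unstimulated scramble libraries. It was 62.4 to 64.7 CPM with TGF-β and 194 to 219 CPM with PDGF-BB. With the siRNA it was 90.5 to 93.2, 25.3 to 31.2 and 81.6 to 90.0 CPM in the same order of media. The fibroblast sum was thus lower with TGF-β and, except under TGF-β, higher with the siRNA, as many of the genes below were, and its part in their changes was not tested, nor was that of the mesothelial markers. In bulk libraries fewer cells of a type and less RNA per cell cannot be told apart. Of 9 macrophage markers 5 passed the low-count filter. The sum of all 9 was 17.6 to 20.7 CPM in unstimulated scramble libraries. It was 9.43 to 10.7 CPM with TGF-β and 24.3 to 26.2 CPM with PDGF-BB. With the siRNA it was 19.5 to 20.9, 12.1 to 15.2 and 24.8 to 27.0 CPM. The macrophage sum was thus lower with TGF-β in both arms. All 10 endothelial markers were measured, with a sum of 98.9 to 116 CPM in unstimulated scramble libraries, 76.7 to 93.0 CPM with TGF-β and 115 to 134 CPM with PDGF-BB. With the siRNA it was 81.2 to 96.6, 70.5 to 76.4 and 89.3 to 107 CPM. Of 6 adipocyte markers 2 passed the low-count filter and Cidec was at 0 in every library. The sum of all 6 was 13.4 to 15.6 CPM in unstimulated scramble libraries. It was 27.4 to 29.2 CPM with TGF-β and 28.8 to 29.996 CPM with PDGF-BB. With the siRNA the adipocyte sum was lower in each medium, at 5.08 to 5.795, 8.55 to 11.2 and 13.8 to 15.96 CPM. The part of these 3 marker lists was not tested either. No erythroid marker of 4 passed the filter.

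The flavin monooxygenases, which use NADPH to oxygenate nitrogen and sulfur atoms of drugs, fell with both stimuli. Fmo2 measured 34.003, 39.7 and 41.3 CPM in unstimulated scramble libraries, 0.928, 0.753 and 0.926 CPM with TGF-β and 4.54, 4.99 and 4.25 CPM with PDGF-BB. With Itgav siRNA, Fmo2 measured 101, 104 and 101 CPM unstimulated, 3.03, 3.37 and 3.58 CPM with TGF-β and 9.83, 10.4 and 9.69 CPM with PDGF-BB. Every siRNA library was above every scramble library of its medium, and every stimulated library was below the unstimulated libraries of its arm. The log2 fold change was -5.46 ± 0.12 (SE, adjusted p = 1.4e-19) with TGF-β and -3.06 ± 0.086 (SE, adjusted p = 4.1e-17) with PDGF-BB in scramble cells, a 43.9-fold and an 8.34-fold fall. The siRNA raised Fmo2 by 1.41 ± 0.064, 1.94 ± 0.18 and 1.12 ± 0.10 on the log2 scale in unstimulated, TGF-β and PDGF-BB medium. The differences of the siRNA effect from the unstimulated one were not called (adjusted p = 0.083 and 0.098).

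Fmo1 lies 7.7 kb from Fmo2 on chromosome 1 and was far lower, at 3.39, 3.04 and 3.05 CPM unstimulated, 0.696, 0.215 and 0.347 CPM with TGF-β and 1.16, 0.463 and 1.39 CPM with PDGF-BB in scramble libraries. Its fall with TGF-β was -2.91 ± 0.38 (SE, adjusted p = 1.3e-06) on the log2 scale and that with PDGF-BB -1.64 ± 0.32 (SE, adjusted p = 0.00035), with no overlap of the libraries. Fmo1 gave no called siRNA effect, with log2 values of 0.32, -1.01 and 0.39 in the 3 media and overlapping libraries. Fmo5, a form known to oxygenate ketones, was at 9.69 to 11.5 CPM in unstimulated scramble libraries and fell with TGF-β by 0.89 ± 0.12 and with PDGF-BB by 0.47 ± 0.12 on the log2 scale. All 3 genes were lower with TGF-β than with PDGF-BB in the direct comparison. Of these, the Fmo1 difference ended without any of 4 of the 6 libraries, scramble TGF-β replicates 2 and 3 and scramble PDGF-BB replicates 1 and 3 (log2 -1.17 to -0.95, adjusted p = 0.051 to 0.11), and that of Fmo5 without scramble PDGF-BB replicate 1 (log2 -0.32, adjusted p = 0.054).

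The mu class glutathione transferases, cytosolic enzymes that couple glutathione to electrophiles, lie together on chromosome 3, and their called siRNA effects went in both directions. Gstm1 (chr3:108012255-108017973, GRCm38, minus strand) measured 107, 97.8 and 94.2 CPM in unstimulated scramble libraries, 16.9, 15.8 and 16.6 CPM with TGF-β and 65.9, 63.1 and 60.4 CPM with PDGF-BB. With Itgav siRNA, Gstm1 measured 255, 248 and 237, 20.7, 20.1 and 20.001 and 153, 154 and 149.7 CPM in the same order of media. It was lowest in the TGF-β libraries and higher in every siRNA library than in the scramble libraries of its medium. TGF-β lowered it 6.08-fold in scramble cells, a log2 change of -2.60 ± 0.058 (SE, adjusted p = 1.9e-19), and 12.2-fold in siRNA cells. The siRNA raised Gstm1 by 1.31 ± 0.048 (SE, adjusted p = 1.7e-15) on the log2 scale in unstimulated cells and by 1.27 ± 0.049 (SE, adjusted p = 3.1e-15) under PDGF-BB. Under TGF-β the rise was 0.30 ± 0.066 (SE, adjusted p = 0.00063).

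Gstm2 (chr3:107981702-107986453, minus strand), 25.8 kb away, went the other way with the siRNA. Scramble libraries held 335, 317 and 313 CPM of it unstimulated, 206, 201 and 241 CPM with TGF-β and 214, 208 and 212 CPM with PDGF-BB. With Itgav siRNA, Gstm2 measured 221, 226 and 224, 129.9, 119.8 and 126 and 127, 123 and 119 CPM. The siRNA lowered it by 0.52 ± 0.053, 0.79 ± 0.055 and 0.78 ± 0.054 on the log2 scale in the 3 media, without overlap. Gstm5, which lies 83.0 kb from Gstm2, followed with falls of 0.33 ± 0.054, 0.42 ± 0.058 and 0.39 ± 0.056 from levels of 51.9 to 58.8 CPM in unstimulated scramble libraries. Gstm4, 22.4 kb beyond Gstm1, gave siRNA values of 0.09, 0.00 and -0.01, none called, and fell with TGF-β by 0.48 ± 0.11 (adjusted p = 0.001). All 4 genes fell with TGF-β in both arms. Members of this cluster have similar sequences, so reads shared between them may be split in ways the counts do not show, and Gstm5 overlaps 4933431E20Rik on the opposite strand.

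Among the other cytosolic and mitochondrial glutathione transferases, 5 of 7 fell and 1 rose with TGF-β in scramble cells. Gsta4, which conjugates the lipid peroxidation product 4-hydroxynonenal, measured 12.97, 10.1 and 10.4 CPM unstimulated, 2.55, 1.88 and 2.31 CPM with TGF-β and 9.59, 6.898 and 8.19 CPM with PDGF-BB in scramble libraries. With Itgav siRNA, Gsta4 measured 23.9, 23.7 and 22.4, 5.603, 3.97 and 5.67 and 29.7, 28.2 and 30.03 CPM in those media. The siRNA libraries were above the scramble libraries in each medium, by 1.06 ± 0.11 (SE, adjusted p = 7e-08), 1.18 ± 0.18 (SE, adjusted p = 1.2e-05) and 1.83 ± 0.12 (SE, adjusted p = 1.3e-11) on the log2 scale. TGF-β lowered it 4.97-fold in scramble cells, with a log2 change of -2.31 ± 0.16 (SE, adjusted p = 5e-11). PDGF-BB gave -0.44 ± 0.13 in scramble cells and 0.33 ± 0.11 in siRNA cells, both called, and the siRNA effect was larger under PDGF-BB than without stimulus by 0.77 ± 0.16 (SE, adjusted p = 0.0024). The PDGF-BB call in scramble cells ended without scramble unstimulated replicate 1 or scramble PDGF-BB replicate 2 (log2 -0.33 to -0.32, adjusted p = 0.055 to 0.072), and that in siRNA cells without Itgav siRNA unstimulated replicate 3 or Itgav siRNA PDGF-BB replicate 3 (log2 0.30 to 0.31, adjusted p = 0.061 to 0.076).

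The theta class genes Gstt1, Gstt2 and Gstt3, whose enzymes act on small halogenated compounds, lie close together on chromosome 10, with gaps of 2.4 and 32.5 kb. Gstt1 measured 47.5, 47.5 and 43.9 CPM in unstimulated scramble libraries, 14.9, 15.9 and 17.4 CPM with TGF-β and 19.2, 17.2 and 20.8 CPM with PDGF-BB. With Itgav siRNA, Gstt1 measured 74.4, 76.7 and 82.7, 11.2, 12.9 and 11.8 and 25.8, 22.9 and 21.4 CPM. The siRNA libraries were thus higher in unstimulated and PDGF-BB medium and lower under TGF-β, with log2 values of 0.75 ± 0.071 (SE, adjusted p = 9.5e-09), 0.29 ± 0.083 (SE, adjusted p = 0.0045) and -0.42 ± 0.10 (SE, adjusted p = 0.00082). Gstt3, 2.4 kb away, was at 17.6, 15.9 and 17.2 CPM in unstimulated scramble libraries and rose with the siRNA in unstimulated cells by 0.39 ± 0.079 (SE, adjusted p = 0.00026). Its siRNA values under TGF-β and PDGF-BB, -0.01 and -0.11, were not called. In scramble cells TGF-β lowered it by 0.34 ± 0.083, whereas PDGF-BB raised it by 0.30 ± 0.079. Gstt2 stood at 3.46 to 6.72 CPM across the 18 libraries and gave a called siRNA effect under TGF-β alone, at -0.45 ± 0.16. That call ended without scramble TGF-β replicate 2, Itgav siRNA TGF-β replicate 1 or Itgav siRNA TGF-β replicate 3 (log2 -0.45 to -0.37, adjusted p = 0.058 to 0.11) and without the low-count filter. Exons of Gstt3 overlap Gm20441 on the same strand, so its reads are uncertain.

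Gstp1, the pi class transferase, measured 159.9, 136 and 143 CPM in unstimulated scramble libraries and 90.7, 89.1 and 108 CPM with TGF-β, a log2 change of -0.61 ± 0.078 (SE, adjusted p = 9.8e-07). Its siRNA effect in unstimulated cells, -0.22 ± 0.077, was called but ended without scramble unstimulated replicate 1, Itgav siRNA unstimulated replicate 1 or Itgav siRNA unstimulated replicate 3 (log2 -0.21 to -0.15, adjusted p = 0.06 to 0.13). Near-identical copies of this gene lie beside it in the mouse genome, which leaves its counts uncertain. Gsto1, the omega class enzyme that reduces dehydroascorbate, was the transferase that rose with both stimuli. It measured 137, 128 and 131 CPM unstimulated, 194, 194 and 226 CPM with TGF-β and 256, 229 and 235 CPM with PDGF-BB in scramble libraries. The rises were 0.63 ± 0.055 (SE, adjusted p = 2.4e-09) and 0.86 ± 0.055 (SE, adjusted p = 3.3e-11) on the log2 scale, and the siRNA lowered it in each medium, by 0.31 ± 0.056, 0.33 ± 0.055 and 0.37 ± 0.054. Gstk1, the mitochondrial and peroxisomal kappa form, was at 7.65 to 9.74 CPM in unstimulated scramble libraries and fell with TGF-β by 0.45 ± 0.12 and with PDGF-BB by 0.46 ± 0.12. Its siRNA rise was called in unstimulated cells, at 0.39 ± 0.11, and under PDGF-BB, at 0.35 ± 0.12, where it ended without scramble PDGF-BB replicate 3 or Itgav siRNA PDGF-BB replicate 1 (log2 0.24 to 0.30, adjusted p = 0.067 to 0.11).

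Both measured microsomal glutathione transferases, which sit in membranes and also reduce lipid peroxides, fell with TGF-β. Mgst1 measured 94.7, 93.3 and 91.3 CPM unstimulated, 36.3, 38.01 and 40.8 CPM with TGF-β and 68.02, 72.2 and 73.2 CPM with PDGF-BB in scramble libraries. With Itgav siRNA, Mgst1 measured 89.5, 93.8 and 87.5, 33.2, 32.1 and 32.8 and 108, 113 and 103 CPM. The siRNA thus left the unstimulated libraries overlapping (log2 -0.04 ± 0.048), lowered Mgst1 under TGF-β by 0.23 ± 0.056 and raised it under PDGF-BB by 0.60 ± 0.049. The difference between the PDGF-BB and unstimulated siRNA effects was 0.65 ± 0.069 (SE, adjusted p = 1e-06). Mgst3 measured 31.9, 29.4 and 27.6 CPM in unstimulated scramble libraries and 21.3, 20.9 and 20.4 CPM with the siRNA. The siRNA lowered Mgst3 in all 3 media, by 0.51 ± 0.080, 1.34 ± 0.10 and 0.93 ± 0.080 on the log2 scale, with the greatest fall under TGF-β.

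The 6 aldehyde dehydrogenases all fell with TGF-β in both arms, and the range was wide. Aldh3a1, which oxidises aromatic and medium-chain aldehydes, measured 30.8, 30.9 and 26.2 CPM in unstimulated scramble libraries, 1.51, 1.398 and 2.55 CPM with TGF-β and 58.7, 51.9 and 50.5 CPM with PDGF-BB. With Itgav siRNA, Aldh3a1 measured 92.2, 90.5 and 86.6, 2.17, 2.93 and 3.42 and 132, 132 and 125 CPM. TGF-β libraries were far below all others, and PDGF-BB libraries were above the unstimulated libraries of the same arm. The log2 change in scramble cells was -4.01 ± 0.14 (SE, adjusted p = 4.8e-16) with TGF-β, a 16.2-fold fall, and 0.87 ± 0.084 (SE, adjusted p = 3e-08) with PDGF-BB. The siRNA raised Aldh3a1 3.06-fold in unstimulated cells, by 1.61 ± 0.083 (SE, adjusted p = 3.7e-13) on the log2 scale, and 2.42-fold under PDGF-BB. Under TGF-β its call, at 0.66 ± 0.22, rested on overlapping libraries of few counts. It ended without scramble TGF-β replicate 1, scramble TGF-β replicate 2 or Itgav siRNA TGF-β replicate 3 (log2 0.49 to 0.54, adjusted p = 0.079 to 0.11), and at an adjusted p of 0.056 where only the compared groups were fitted.

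Aldh3a2, the fatty aldehyde dehydrogenase, lies 5.0 kb from Aldh3a1 on the opposite strand and moved little. It stood at 90.4, 91.8 and 89.3 CPM in unstimulated scramble libraries and 83.6, 81.6 and 79.4 CPM with TGF-β, a log2 change of -0.15 ± 0.043 (SE, adjusted p = 0.0055), and the siRNA lowered it by 0.18 ± 0.043, 0.45 ± 0.044 and 0.18 ± 0.042 where it raised Aldh3a1. Its PDGF-BB value in scramble cells, 0.11 ± 0.042, was called but ended without any 1 of the 6 libraries compared (log2 0.10 to 0.12, adjusted p = 0.061 to 0.13). Aldh3b1, an enzyme for aldehydes from lipid peroxidation, measured 32.4, 31.6 and 32.9 CPM unstimulated and 15.6, 14.9 and 15.4 CPM with TGF-β in scramble libraries, against 22.97, 24.2 and 24.5 and 8.06, 6.02 and 6.95 CPM with the siRNA. It fell with TGF-β by 1.08 ± 0.074, and with the siRNA by 0.44 ± 0.070 without stimulus and 1.13 ± 0.089 under TGF-β.

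Aldh2, the mitochondrial enzyme that clears acetaldehyde, was the most abundant of the family at 434, 402 and 403 CPM, or 80.6 CPM per kilobase. It fell with TGF-β by 0.31 ± 0.053 (SE, adjusted p = 3.8e-05) on the log2 scale, and its siRNA values were 0.09, 0.00 and -0.02, none called. Aldh7a1, which acts in lysine breakdown, stood at 116 to 124 CPM in unstimulated scramble libraries and fell with the siRNA by 0.21 ± 0.045, 0.38 ± 0.047 and 0.48 ± 0.045. Aldh9a1, an enzyme of carnitine synthesis, was at 23.8 to 26.0 CPM and fell with TGF-β by 0.51 ± 0.072. Aldh2 and Aldh7a1 overlap other genes on the opposite strand, and the sources used here do not say whether counting used the strand.

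The monoamine oxidases, mitochondrial enzymes that break down serotonin, noradrenaline and other amines, lie 21.5 kb apart on chromosome X and moved in the same direction in every called comparison. Maoa measured 395, 404 and 404 CPM in unstimulated scramble libraries, 129, 130.5 and 132 CPM with TGF-β and 215, 222 and 229.9 CPM with PDGF-BB. With Itgav siRNA, Maoa measured 401, 388 and 399, 80.7, 73.5 and 78.2 and 262, 262 and 256 CPM. Without stimulus the arms overlapped, under TGF-β the siRNA libraries were lower and under PDGF-BB they were higher. Maoa fell 3.08-fold with TGF-β in scramble cells, a log2 change of -1.62 ± 0.040 (SE, adjusted p = 8.6e-19), and 5.11-fold in siRNA cells. Maob measured 54.5, 57.1 and 55.2 CPM in unstimulated scramble libraries, 34.3, 33.3 and 35.8 CPM with TGF-β and 41.2, 41.4 and 44.2 CPM with PDGF-BB. With Itgav siRNA, Maob measured 58.7, 61.6 and 57.8, 16.1, 17.7 and 17.2 and 53.9, 54.2 and 52.6 CPM. The siRNA effect on the log2 scale was -0.02 ± 0.038 for Maoa and 0.09 ± 0.049 for Maob without stimulus, neither called. Under TGF-β it was -0.75 ± 0.041 (SE, adjusted p = 1.2e-12) for Maoa and -1.02 ± 0.058 (SE, adjusted p = 2.6e-12) for Maob, and under PDGF-BB 0.23 ± 0.038 (SE, adjusted p = 2.9e-05) and 0.34 ± 0.050 (SE, adjusted p = 4.5e-06). Set against unstimulated cells, the siRNA effect under TGF-β differed by -0.73 ± 0.056 (SE, adjusted p = 2.7e-09) for Maoa and -1.11 ± 0.076 (SE, adjusted p = 6e-10) for Maob.

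**Figure D2:**
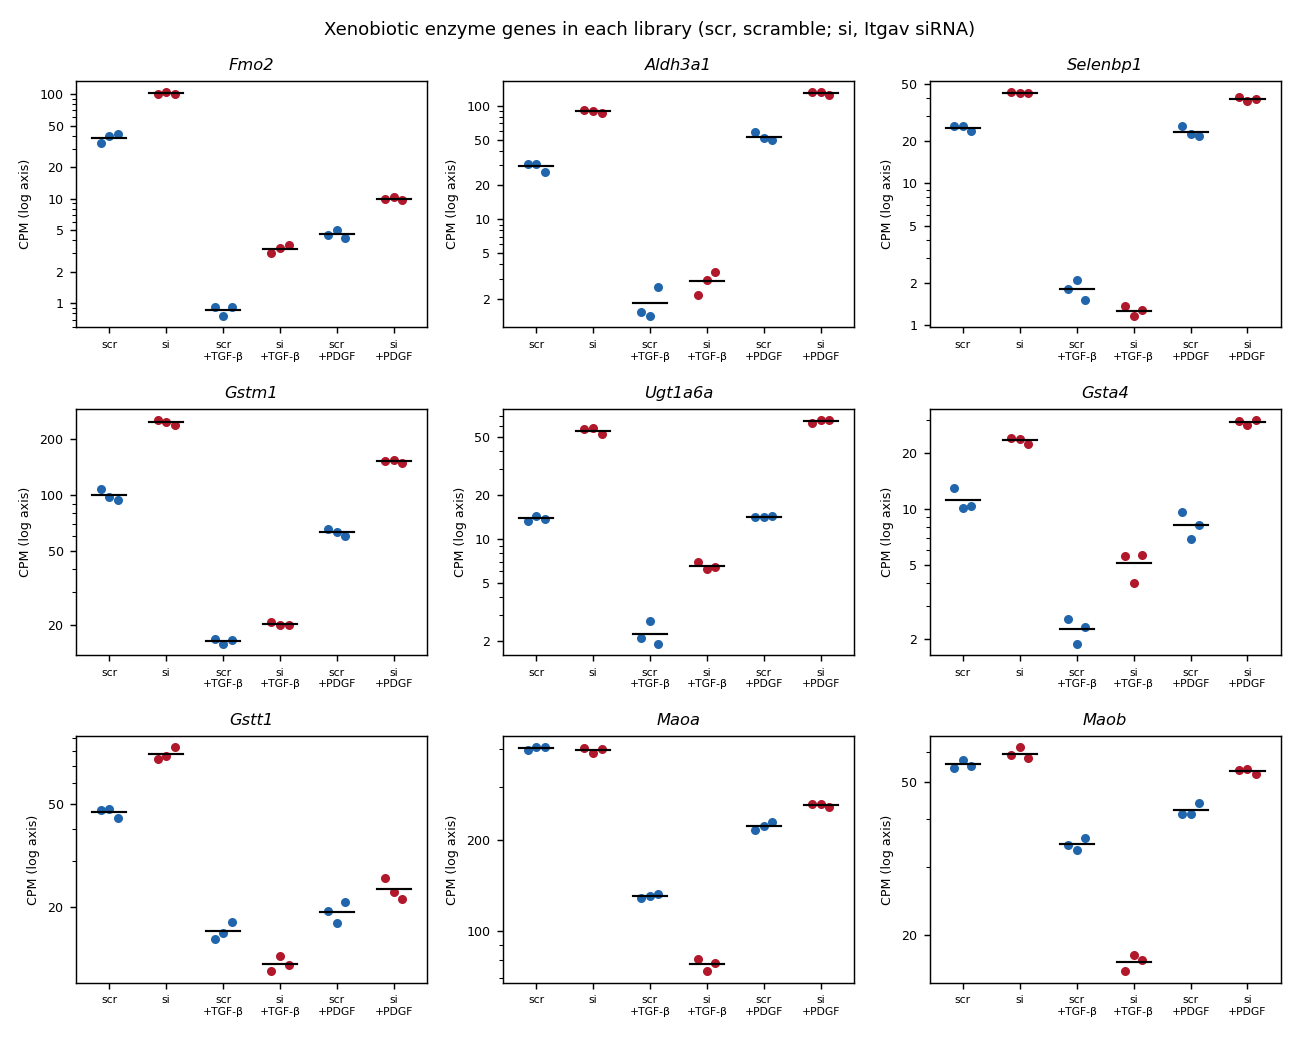
CPM (log axis) of 9 enzyme genes in each of the 18 libraries, scramble in blue and Itgav siRNA in red, with a bar at the mean of each group of 3. Fmo2, Aldh3a1, Selenbp1, Gstm1, Ugt1a6a and Gsta4 drop with TGF-β, and for Maoa and Maob the red points fall below the blue points under TGF-β and above them under PDGF-BB.

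Of the remaining enzymes, Ugt1a6a gave the greatest siRNA rise. Its product attaches glucuronic acid to small phenols. Ugt1a6a measured 13.4, 14.4 and 13.8 CPM in unstimulated scramble libraries, 2.09, 2.74 and 1.91 CPM with TGF-β and 14.2, 14.1 and 14.4 CPM with PDGF-BB. With Itgav siRNA, Ugt1a6a measured 56.6, 57.3 and 52.6, 6.98, 6.18 and 6.42 and 62.8, 65.7 and 65.1 CPM. All siRNA libraries exceeded the scramble libraries of their medium, by 4.01-fold, 2.88-fold and 4.53-fold, or 2.003 ± 0.066 (SE, adjusted p = 3.8e-16), 1.53 ± 0.12 (SE, adjusted p = 4.6e-10) and 2.18 ± 0.066 (SE, adjusted p = 5.8e-17) on the log2 scale. It fell by 2.61 ± 0.10 (SE, adjusted p = 3.6e-15) with TGF-β, and PDGF-BB gave 0.04 ± 0.074 in scramble cells, which was not called. Ugt1a6a shares exons with 8 other Ugt1a genes, so its counts may include reads of those genes.

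Selenbp1, the methanethiol oxidase, measured 25.4, 25.6 and 23.3 CPM in unstimulated scramble libraries, 1.799, 2.097 and 1.504 CPM with TGF-β and 25.2, 22.2 and 21.5 CPM with PDGF-BB. With Itgav siRNA, Selenbp1 measured 43.9, 43.4 and 43.2, 1.37, 1.16 and 1.28 and 40.5, 37.9 and 39.2 CPM. It fell 13.7-fold with TGF-β, by 3.77 ± 0.11 (SE, adjusted p = 1e-17) on the log2 scale, and 34.1-fold in siRNA cells. The siRNA raised it by 0.81 ± 0.068 (SE, adjusted p = 1.2e-09) without stimulus and 0.77 ± 0.068 (SE, adjusted p = 2.6e-09) under PDGF-BB, while under TGF-β the value was -0.51 ± 0.18 (SE, adjusted p = 0.051) and was not called. Aox1, aldehyde oxidase, measured 38.1, 39.7 and 40.8 CPM without stimulus, 31.4, 34.5 and 29.9 CPM with TGF-β and 47.1, 48.1 and 41.6 CPM with PDGF-BB in scramble libraries. With Itgav siRNA, Aox1 measured 61.4, 61.2 and 71.8, 35.1, 37.5 and 34.7 and 91.4, 103 and 103 CPM, and the siRNA rise was 0.71 ± 0.072 (SE, adjusted p = 2.7e-08) without stimulus and 1.12 ± 0.070 (SE, adjusted p = 9.3e-12) under PDGF-BB. Its PDGF-BB call in scramble cells, 0.21 ± 0.074, ended without any 1 of 4 libraries, replicates 1 and 2 of the scramble unstimulated and scramble PDGF-BB groups (log2 0.17 to 0.21, adjusted p = 0.069 to 0.12).

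Por encodes the reductase that passes electrons to the microsomal P450 enzymes. It measured 63.1, 65.3 and 62.7 CPM in unstimulated scramble libraries, 50.3, 52.2 and 50.7 CPM with TGF-β and 126, 127 and 125 CPM with PDGF-BB. With Itgav siRNA, Por measured 83.3, 77.1 and 73.4, 74.5, 71.2 and 79.8 and 168, 173 and 156 CPM. PDGF-BB libraries were the highest in both arms, with a log2 rise of 0.98 ± 0.052 (SE, adjusted p = 1.4e-12) in scramble cells, and the siRNA raised Por by 0.29 ± 0.053, 0.56 ± 0.055 and 0.40 ± 0.050 in the 3 media. Cyp1b1 and Ephx1, the most abundant of the 39 per kilobase, fell with the siRNA. Cyp1b1 measured 1427, 1528 and 1531 CPM in unstimulated scramble libraries and 1157, 1127 and 1135 CPM with the siRNA, and its siRNA changes were -0.39 ± 0.049, -0.49 ± 0.050 and -0.47 ± 0.049. Ephx1 measured 1177, 1106 and 1083 CPM in unstimulated scramble libraries and 689, 673 and 721 CPM with TGF-β, a log2 change of -0.69 ± 0.046 (SE, adjusted p = 2.5e-11). Its siRNA changes were -0.23 ± 0.046, -0.62 ± 0.046 and -0.28 ± 0.046, and its exons overlap Gm36961 on the same strand.

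Of the 6 NRF2 target genes followed here, 5 rose and 1, Txnrd1, fell with the siRNA both in unstimulated cells and under PDGF-BB. Under TGF-β 4 rose with the siRNA, 1, Nqo1, fell and 1, Txnrd1, was not called. Of all genes, 25.9% rose and 27.5% fell without stimulus, 24.1% and 24.3% under TGF-β, and 29.4% and 29.9% under PDGF-BB. With TGF-β in scramble cells 1 rose, 2 fell and 3 were not called, beside 23.4% higher and 24.8% lower of all genes. Hmox1 encodes haem oxygenase, which cleaves haem to biliverdin, iron and carbon monoxide. It measured 86.6, 78.03 and 74.04 CPM in unstimulated scramble libraries, 67.7, 67.9 and 64.9 CPM with TGF-β and 186, 166 and 156 CPM with PDGF-BB. With Itgav siRNA, Hmox1 measured 345, 325 and 299, 243, 250.4 and 255 and 600.4, 616 and 567 CPM. Every siRNA library was above every scramble library, whatever the medium. The rise was 4.06-fold without stimulus, 3.73-fold under TGF-β and 3.52-fold under PDGF-BB, or 2.02 ± 0.065 (SE, adjusted p = 2.5e-16), 1.90 ± 0.066 (SE, adjusted p = 8.4e-16) and 1.81 ± 0.063 (SE, adjusted p = 5.2e-16) on the log2 scale. The siRNA effect was not called as different between PDGF-BB and no stimulus, at -0.21 ± 0.088 (SE, adjusted p = 0.11), but was with the replicate block (adjusted p = 0.046) and without the low-count filter (adjusted p = 0.032). PDGF-BB itself raised Hmox1 by 1.09 ± 0.065 (SE, adjusted p = 1.1e-11) in scramble cells and TGF-β lowered it by 0.25 ± 0.067 (SE, adjusted p = 0.0035).

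Gclc and Gclm encode the catalytic and modifier subunits of glutamate-cysteine ligase, the first and rate-limiting enzyme of glutathione synthesis. Gclc measured 37.1, 41.9 and 44.1 CPM in unstimulated scramble libraries, 33.01, 33.2 and 29.9 CPM with TGF-β and 39.1, 39.4 and 41.2 CPM with PDGF-BB. With Itgav siRNA, Gclc measured 88.6, 86.7 and 87.1, 53.7, 54.7 and 58.9 and 123, 124 and 132 CPM. The siRNA raised it in each medium without overlap, by 1.09 ± 0.059 (SE, adjusted p = 8.2e-13), 0.80 ± 0.062 (SE, adjusted p = 4.7e-10) and 1.66 ± 0.058 (SE, adjusted p = 6.2e-16). Gclm measured 61.1, 60.7 and 70.6 CPM in unstimulated scramble libraries, 64.2, 68.7 and 62.1 CPM with TGF-β and 39.9, 44.4 and 43.7 CPM with PDGF-BB. With Itgav siRNA, Gclm measured 87.7, 90.2 and 82.8, 71.9, 72.4 and 73.1 and 85.5, 85.1 and 88.7 CPM. PDGF-BB lowered Gclm in scramble cells, by 0.59 ± 0.060 (SE, adjusted p = 8.1e-08), and not by the test in siRNA cells, where the value was -0.01 ± 0.057. The siRNA rise was 0.44 ± 0.058 (SE, adjusted p = 1.4e-06) without stimulus and 1.02 ± 0.060 (SE, adjusted p = 3e-12) under PDGF-BB. Under TGF-β it was 0.16 ± 0.059 (SE, adjusted p = 0.034), a call that ended without any 1 of 5 of the 6 libraries, all but scramble TGF-β replicate 2 (log2 0.12 to 0.16, adjusted p = 0.077 to 0.16), and without the low-count filter (adjusted p = 0.078). Gclm exons overlap Gm6061 on the same strand and Gm17494 on the other.

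Srxn1 encodes sulfiredoxin, which restores overoxidised peroxiredoxins. It measured 26.8, 29.5 and 30.7 CPM in unstimulated scramble libraries, 29.5, 29.4 and 27.5 CPM with TGF-β and 37.7, 40.5 and 39.4 CPM with PDGF-BB. With Itgav siRNA, Srxn1 measured 69.6, 68.7 and 66.2, 52.4, 50.8 and 50.5 and 111, 112 and 102 CPM. The siRNA libraries were higher in every medium, by 1.23 ± 0.056 (SE, adjusted p = 5.5e-14), 0.83 ± 0.058 (SE, adjusted p = 8e-11) and 1.47 ± 0.054 (SE, adjusted p = 1.2e-15). Txnrd1, cytosolic thioredoxin reductase, was lower with the siRNA in unstimulated and PDGF-BB medium. It measured 139, 146 and 149 CPM in unstimulated scramble libraries, 149, 161 and 147 CPM with TGF-β and 150.3, 151 and 155 CPM with PDGF-BB. With Itgav siRNA, Txnrd1 measured 133, 126 and 122, 143, 139 and 143 and 131, 137 and 129 CPM, log2 changes of -0.19 ± 0.045 (SE, adjusted p = 0.0012), -0.11 ± 0.045 (SE, adjusted p = 0.055) and -0.20 ± 0.045 (SE, adjusted p = 0.00054).

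Nqo1, the quinone reductase often read as a marker of NRF2 activity, rose with TGF-β. It measured 29.4, 32.3 and 32.6 CPM in unstimulated scramble libraries, 76.01, 83.3 and 91.5 CPM with TGF-β and 27.4, 30.1 and 26.4 CPM with PDGF-BB. With Itgav siRNA, Nqo1 measured 36.8, 37.7 and 37.7, 58.6, 50.6 and 54.8 and 61.5, 55.2 and 61.1 CPM. The scramble TGF-β libraries were the highest of all 18. TGF-β raised Nqo1 2.66-fold in scramble cells, by 1.41 ± 0.072 (SE, adjusted p = 2.7e-13), and by 0.55 ± 0.072 (SE, adjusted p = 9.8e-07) in siRNA cells. The siRNA raised it by 0.25 ± 0.075 (SE, adjusted p = 0.0073) without stimulus and 1.08 ± 0.073 (SE, adjusted p = 3.2e-11) under PDGF-BB, but lowered it under TGF-β by 0.61 ± 0.069 (SE, adjusted p = 1.5e-07). Nqo1 and Gstt1 were the members called higher with the siRNA in those other media and lower under TGF-β, 5.26% of the 38 beside 0.733% of all genes.

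Nfe2l2 RNA moved with the siRNA in the direction of Hmox1, Gclc, Gclm and Srxn1. It measured 84.9, 90.7 and 89.8 CPM in unstimulated scramble libraries, 66.03, 65.9 and 64.5 CPM with TGF-β and 102, 97.7 and 96.6 CPM with PDGF-BB. With Itgav siRNA, Nfe2l2 measured 138, 125 and 120.2, 81.1, 78.7 and 83.6 and 181, 187 and 178 CPM. The siRNA libraries exceeded the scramble libraries in each medium, by 0.53 ± 0.049 (SE, adjusted p = 6.2e-09), 0.31 ± 0.051 (SE, adjusted p = 2.8e-05) and 0.88 ± 0.048 (SE, adjusted p = 9.3e-13). TGF-β lowered it by 0.43 ± 0.051 (SE, adjusted p = 2.4e-07) in scramble cells. The PDGF-BB rise in scramble cells was 0.16 ± 0.049 (SE, adjusted p = 0.015) and ended without scramble unstimulated replicate 1 or scramble PDGF-BB replicate 1 (log2 0.13 to 0.14, adjusted p = 0.06 to 0.081). Keap1 measured 65.1, 62.6 and 60.9 CPM in unstimulated scramble libraries, 53.5, 46.7 and 64.6 CPM with TGF-β and 72.9, 63.9 and 64.98 CPM with PDGF-BB. With Itgav siRNA, Keap1 measured 72.3, 69.7 and 65.4, 61.3, 58.4 and 61.8 and 65.1, 60.1 and 56.7 CPM. The siRNA and scramble libraries overlapped under TGF-β and under PDGF-BB, and its siRNA changes were 0.14 ± 0.082, 0.14 ± 0.084 and -0.15 ± 0.082, none called. Of the 38, Keap1 was the gene with no call in the 2 scramble stimulus comparisons or the 3 siRNA comparisons. Its TGF-β value in scramble cells, -0.20 ± 0.083 (SE, adjusted p = 0.058), crossed the threshold with the replicate block (adjusted p = 0.042), without the low-count filter (adjusted p = 0.0083) and without scramble TGF-β replicate 3 (log2 -0.32, adjusted p = 0.0009). In the direct comparison Keap1 was lower with TGF-β than with PDGF-BB by 0.29 ± 0.083 (SE, adjusted p = 0.0048), which ended without scramble TGF-β replicate 2 (log2 -0.18, adjusted p = 0.056). Exons of Keap1 overlap Gm16754 on the opposite strand, which leaves the Keap1 counts uncertain. NRF2 is controlled mainly through the stability of its protein, which these libraries do not measure.

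**Figure D3:**
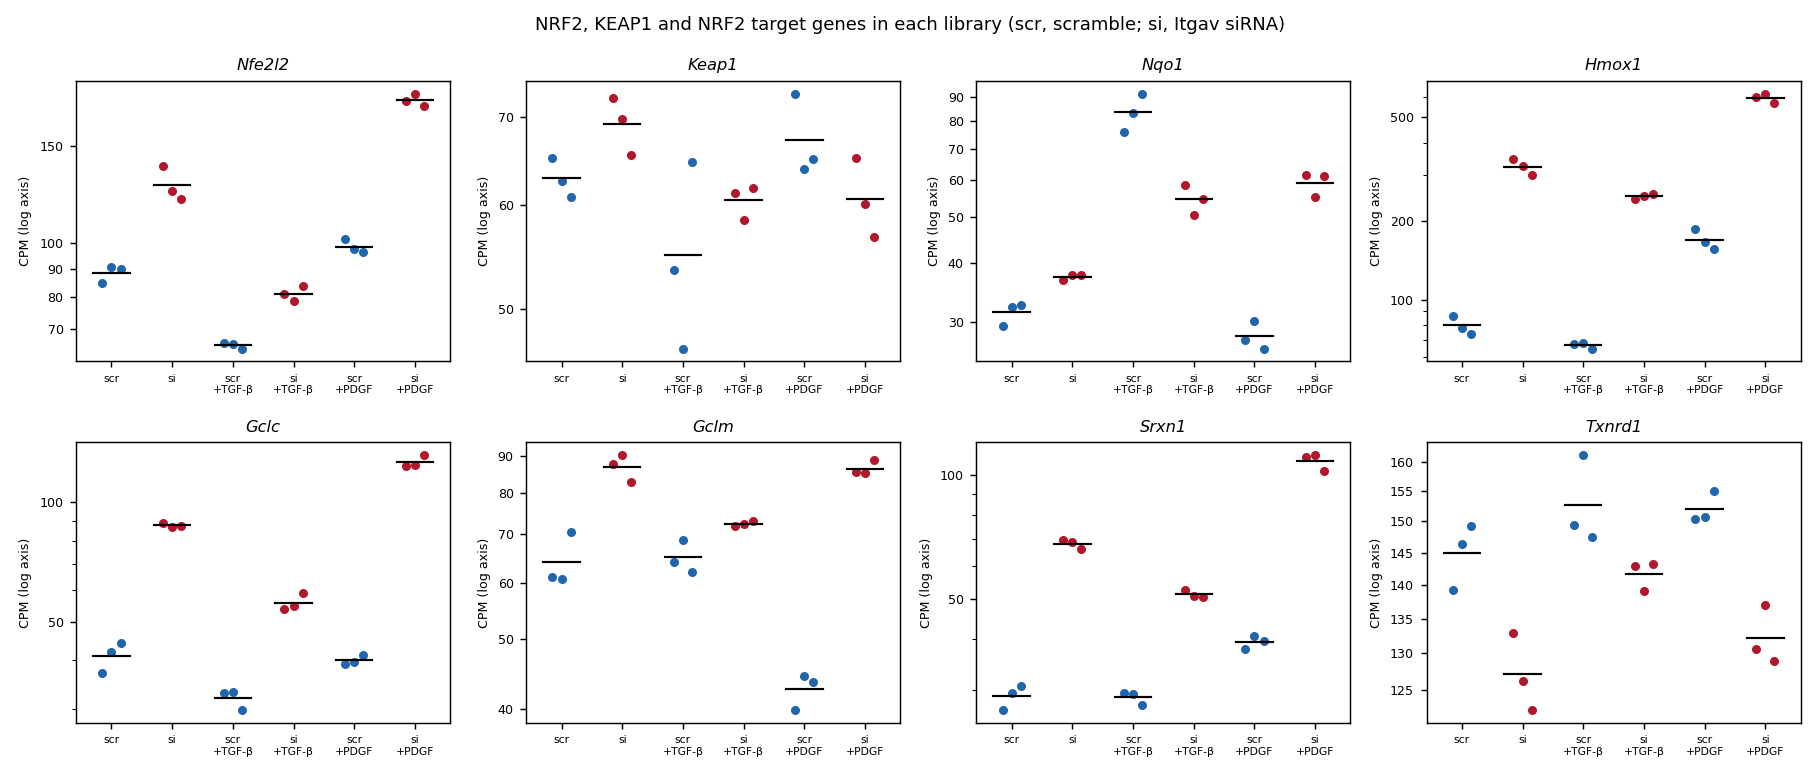
CPM (log axis) of Nfe2l2, Keap1 and the 6 NRF2 target genes in each of the 18 libraries, scramble in blue and Itgav siRNA in red, with a bar at the mean of each group of 3. Red points lie above blue points in every medium for Nfe2l2, Hmox1, Gclc, Gclm and Srxn1, while Nqo1 is highest in the scramble TGF-β libraries.

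The promoter sequences of these genes were read for the motifs of the factors named above, in windows from 250 bases before to 50 bases after the annotated start (RefSeq, GRCm38.p6). Of the 39 genes 30 were in the table. The antioxidant response element core TGACNNNGC, on either strand, was found in 7 of the 30, or 23.3%, beside 14% of all 27025 genes. These were Aldh9a1, Gclm, Gstm5, Mgst1, Nfe2l2, Srxn1 and Txnrd1. The AP-1 site TGANTCA was found in 6 of 30, or 20%, beside 8.97% of all genes, and no match of TGACNNNGC overlapped it. Letters with TGAG in place of TGAC were not searched for this element. The stretch tgagtcagc in the Srxn1 sequence, which includes an AP-1 match, is therefore unmarked. The xenobiotic response element core GCGTG, bound by the aryl hydrocarbon receptor, was found in 14 of 30, or 46.7%, beside 35.2%. The promoters of Gclm, Srxn1 and Nfe2l2 are shown because these 3 rose together with the siRNA, and that of Txnrd1 because it holds the same core and did not. Of the other genes with the core, Gstm5 was called lower in all 3 media, and Aldh9a1 and Mgst1 were not called higher in all 3. Fmo2, Gstm1, Por and Ugt1a6a were called higher in all 3 without the core in their windows. Transcripts that start within 50 bases held 1.13% of the counts for the Mgst1 window with the match, and 0.206% for the Por window. Capitals mark the antioxidant response element core.
Gclm (chr3:122245307-122245606, plus strand): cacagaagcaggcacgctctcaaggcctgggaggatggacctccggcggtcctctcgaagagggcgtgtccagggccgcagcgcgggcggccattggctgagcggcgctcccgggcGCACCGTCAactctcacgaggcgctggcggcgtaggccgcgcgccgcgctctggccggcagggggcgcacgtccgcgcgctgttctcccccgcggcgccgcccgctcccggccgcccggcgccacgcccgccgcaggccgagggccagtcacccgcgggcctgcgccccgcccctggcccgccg
Srxn1 (chr2:152105274-152105573, plus strand): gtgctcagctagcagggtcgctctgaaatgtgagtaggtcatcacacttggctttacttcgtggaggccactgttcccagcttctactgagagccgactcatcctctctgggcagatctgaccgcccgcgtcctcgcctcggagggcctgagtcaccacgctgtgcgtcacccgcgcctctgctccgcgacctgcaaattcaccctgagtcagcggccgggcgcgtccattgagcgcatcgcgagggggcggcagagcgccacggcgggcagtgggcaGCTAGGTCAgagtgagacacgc
Nfe2l2 (chr2:75704614-75704913, minus strand): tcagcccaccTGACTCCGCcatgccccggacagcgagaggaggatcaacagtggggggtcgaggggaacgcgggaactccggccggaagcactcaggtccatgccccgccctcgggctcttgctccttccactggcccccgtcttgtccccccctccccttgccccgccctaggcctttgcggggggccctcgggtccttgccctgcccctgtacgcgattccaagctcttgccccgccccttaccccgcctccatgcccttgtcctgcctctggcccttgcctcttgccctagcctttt
Txnrd1 (chr10:82858956-82859255, plus strand): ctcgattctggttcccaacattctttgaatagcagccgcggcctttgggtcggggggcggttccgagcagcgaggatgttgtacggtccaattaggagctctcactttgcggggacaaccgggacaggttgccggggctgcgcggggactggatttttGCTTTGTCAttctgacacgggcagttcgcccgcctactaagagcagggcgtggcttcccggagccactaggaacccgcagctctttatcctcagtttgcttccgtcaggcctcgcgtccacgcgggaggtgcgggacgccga
The deposited transcript counts place 82.5% of the Gclm counts, 100% of those of Srxn1, 99.7% of those of Nfe2l2 and 93.5% of those of Txnrd1 on transcripts that start within 50 bases of the starts shown. A match of letters is a description and not a bound site, and Hmox1 and Gclc were not in the table.

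The siRNA effect itself depended on the medium for many of these genes. Between TGF-β and unstimulated cells it was lower under TGF-β for 20 of the 38 and higher for 1, Por, against backgrounds of 11% and 12.2%, or 23.2% in all, and the median difference was -0.29 beside 0.00 over all genes. The smallest p-values belonged to Maob, Maoa, Gstm1, Gstt1, Nqo1 and Selenbp1. For Gstm1 the difference was -1.002 ± 0.082 (SE, adjusted p = 8e-09), for Gstt1 -1.17 ± 0.12 (SE, adjusted p = 1.8e-07), for Nqo1 -0.86 ± 0.10 (SE, adjusted p = 1.6e-06) and for Selenbp1 -1.32 ± 0.20 (SE, adjusted p = 2.8e-05). Mgst3 followed at -0.84 ± 0.13 (SE, adjusted p = 3.4e-05) and Aldh3b1 at -0.69 ± 0.11 (SE, adjusted p = 9.5e-05). Hmox1 gave -0.12 ± 0.091 (SE, adjusted p = 0.38) and was not called. The differences were also called for Nfe2l2 at -0.22 ± 0.071, Gclc at -0.29 ± 0.086, Gclm at -0.28 ± 0.083 and Srxn1 at -0.40 ± 0.081. That of Nfe2l2 ended without scramble unstimulated replicate 1, Itgav siRNA unstimulated replicate 1 or Itgav siRNA TGF-β replicate 2 (log2 -0.21 to -0.17, adjusted p = 0.061 to 0.079), and that of Gclc without scramble unstimulated replicate 1 (log2 -0.22, adjusted p = 0.054). The calls of Ugt1a6a and Aldh3a1 ended without scramble TGF-β replicate 2 (log2 -0.31, adjusted p = 0.31) and scramble TGF-β replicate 3 (log2 -0.65, adjusted p = 0.079), the former also without the low-count filter (adjusted p = 0.063). Por ended without Itgav siRNA unstimulated replicate 3 or Itgav siRNA TGF-β replicate 3 (log2 0.21, adjusted p = 0.062 to 0.067). Aldh9a1, at -0.32 ± 0.10, ended without scramble unstimulated replicate 3, scramble TGF-β replicate 3, Itgav siRNA unstimulated replicate 1 or Itgav siRNA TGF-β replicate 3 (log2 -0.31 to -0.30, adjusted p = 0.052 to 0.066).

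Between PDGF-BB and unstimulated cells the siRNA effect was higher under PDGF-BB for 10 of the 38 and lower for 6, against backgrounds of 9.51% and 9.32%, or 18.8% in all, with a median difference of -0.02. Of the 10, 4 were NRF2 targets and another was Nfe2l2 itself. The differences were 0.83 ± 0.10 (SE, adjusted p = 9.3e-06) for Nqo1, 0.58 ± 0.083 (SE, adjusted p = 4.5e-05) for Gclm, 0.57 ± 0.082 (SE, adjusted p = 5.1e-05) for Gclc and 0.35 ± 0.068 (SE, adjusted p = 0.001) for Nfe2l2. For Mgst1 the difference, given above, had the smallest p of the 38. Srxn1 gave 0.23 ± 0.078 (SE, adjusted p = 0.041), a call that ended without any 1 of 9 of the 12 libraries, all but scramble unstimulated replicate 1, scramble PDGF-BB replicate 2 and Itgav siRNA PDGF-BB replicate 3 (log2 0.18 to 0.24, adjusted p = 0.059 to 0.15), without the low-count filter (adjusted p = 0.12) and with only the compared groups fitted (adjusted p = 0.062). Among the 6 lower were Gstt3 at -0.49 ± 0.11 (SE, adjusted p = 0.0035) and Gstt1 at -0.46 ± 0.11 (SE, adjusted p = 0.0055). Aldh3a1, at -0.34 ± 0.11, was a call that ended without any 1 of 6 of the 12 libraries, namely scramble unstimulated replicate 3, scramble PDGF-BB replicate 1, Itgav siRNA unstimulated replicates 1 and 2 and Itgav siRNA PDGF-BB replicates 2 and 3 (log2 -0.36 to -0.27, adjusted p = 0.055 to 0.12). The call of Gstm2, at -0.26 ± 0.076, ended without scramble unstimulated replicate 3 or Itgav siRNA PDGF-BB replicate 3 (log2 -0.24, adjusted p = 0.054 to 0.057). That of Maob, at 0.25 ± 0.070, ended without scramble unstimulated replicate 2 or Itgav siRNA unstimulated replicate 3 (log2 0.22, adjusted p = 0.053 to 0.057). The differences under TGF-β and under PDGF-BB share the unstimulated libraries.

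**Figure D4:**
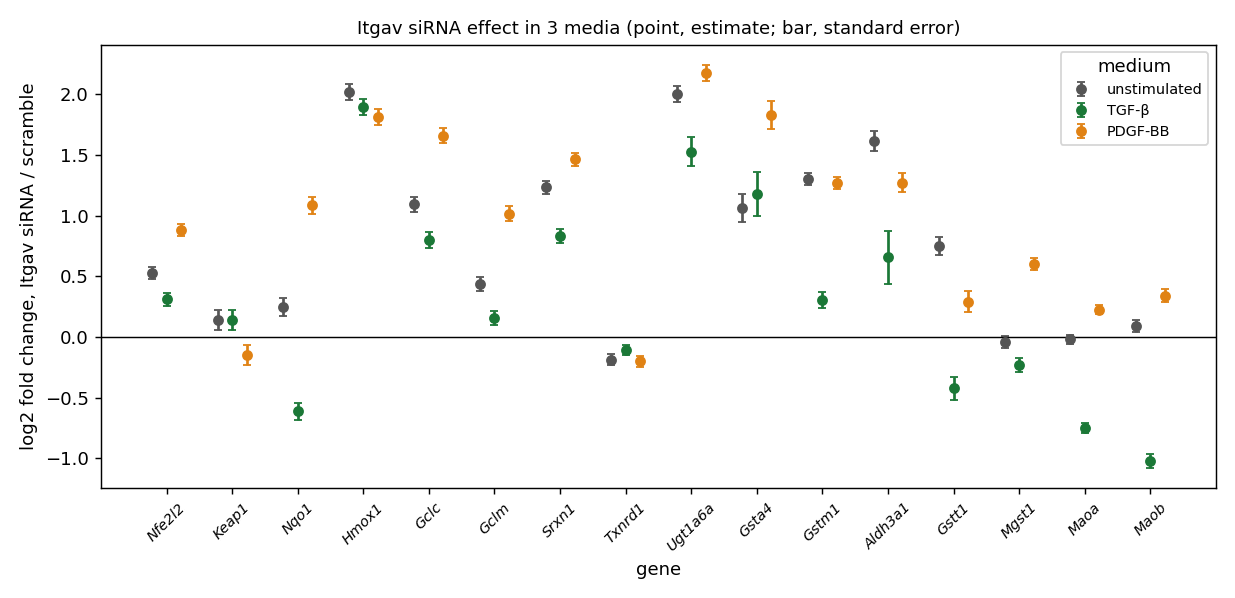
Log2 fold change of Itgav siRNA against scramble (vertical axis) for 16 genes, in unstimulated (grey), TGF-β (green) and PDGF-BB (orange) medium, with the standard error as a bar. Green points lie below grey points for Gstm1, Nqo1, Gstt1, Maoa and Maob, and orange points lie above grey points for Nqo1, Gclc, Gclm, Nfe2l2 and Mgst1.

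Other genes of the same pathways were counted from 11 lists that hold 113 tested genes. In scramble cells 25 of the 113 rose and 52 fell with TGF-β, beside 23.4% and 24.8% of all genes, and 33 rose and 30 fell with PDGF-BB, beside 16.9% and 19.2%. With the siRNA 41 rose and 36 fell without stimulus, beside 25.9% and 27.5%. Under TGF-β 28 rose and 42 fell, beside 24.1% and 24.3%, and under PDGF-BB 47 rose and 43 fell, beside 29.4% and 29.9%. The same shares of all genes apply to the single lists, most of which hold few genes. Of 15 other NRF2 targets, 12 fell and 1 rose with TGF-β, while 8 rose and 3 fell with the siRNA in unstimulated cells. With the siRNA 5 of the 15 rose and 4 fell under TGF-β, and 8 rose and 2 fell under PDGF-BB. Among them Fth1, the ferritin heavy chain that stores iron, measured 1479, 1364 and 1353 CPM in unstimulated scramble libraries and 2849, 2816 and 2679 CPM with the siRNA, a log2 rise of 0.99 ± 0.053 (SE, adjusted p = 6.5e-13). Akr1c14, an aldo-keto reductase, fell with TGF-β by 2.18 ± 0.059 (SE, adjusted p = 5.1e-18) and rose with the siRNA by 0.73 ± 0.050 (SE, adjusted p = 4.1e-11). Slc40a1, the iron exporter ferroportin, rose under PDGF-BB with the siRNA by 3.22 ± 0.18 (SE, adjusted p = 2e-12).

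Of 12 genes of glutathione supply and recycling, 5 rose and 3 fell with the siRNA in unstimulated cells. Under TGF-β 3 of them rose and 5 fell with the siRNA, and under PDGF-BB 6 rose and 4 fell. Slc7a11, the cystine importer, measured 3.44, 5.33 and 3.68 CPM in unstimulated scramble libraries and 29.03, 28.97 and 26.6 CPM with the siRNA, a rise of 2.77 ± 0.16 (SE, adjusted p = 3.1e-12). Under PDGF-BB it measured 8.74, 12.6 and 11.5 CPM in scramble and 104, 121 and 119.9 CPM in siRNA libraries. Glrx, a glutaredoxin, fell with the siRNA by 0.59 ± 0.057 and with TGF-β by 1.31 ± 0.061. Among 10 NRF2 regulators 3 rose and 1 fell with the siRNA without stimulus, 3 rose and 3 fell under TGF-β, and 6 rose and 3 fell under PDGF-BB. Of these, Sqstm1, which encodes the KEAP1-binding autophagy adaptor p62, rose in each medium, by 0.74 ± 0.046, 0.76 ± 0.046 and 0.70 ± 0.046. Of 6 genes of NADPH supply 3 rose and 1 fell, with Taldo1, transaldolase, up by 1.37 ± 0.069 (SE, adjusted p = 3e-13). Under TGF-β 3 of the 6 rose and 2 fell with the siRNA, and under PDGF-BB 4 rose and 1 fell.

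Of 5 glutathione peroxidases 4 fell and 1 rose with the siRNA in unstimulated cells, where 27.5% of all genes fell and 25.9% rose. Under TGF-β 1 of them fell and 2 rose, with a median log2 change of 0.12, and under PDGF-BB 4 fell. Gpx1 changed by -0.42 ± 0.049 (SE, adjusted p = 2.1e-07) without stimulus. Of 11 thioredoxin and peroxiredoxin genes 6 fell and 2 rose with the siRNA without stimulus, and 7 fell and 2 rose under TGF-β and again under PDGF-BB. Of 4 genes for superoxide and peroxide removal 2 fell and 1 rose without stimulus, 2 fell under TGF-β and 3 fell under PDGF-BB. Among these 4, Cat, catalase, measured 114, 116 and 115 CPM in scramble and 54.9, 55.1 and 58.7 CPM in siRNA libraries, a log2 change of -1.03 ± 0.048 (SE, adjusted p = 8.9e-14). For the aryl hydrocarbon receptor axis, 2 of 6 tested genes rose with the siRNA without stimulus and 1 under TGF-β, and none fell. Under PDGF-BB 5 of the 6 rose and 1 fell, where 29.4% of all genes rose and 29.9% fell. Tiparp, a target of that receptor, rose under PDGF-BB by 1.16 ± 0.068 (SE, adjusted p = 2.6e-12). Cyp1a1, its best-known target, was at 0 in all 3 unstimulated scramble libraries. Under PDGF-BB it was at 2.69, 2.07 and 1.76 CPM in siRNA libraries, against 0.0505, 0 and 0 CPM in scramble libraries. A gene this low in scramble libraries can pass the low-count filter only through libraries where it is high. The Cyp1a1 values were also added after they were seen, and they are not support for the counts of this list.

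Among 29 other phase I and II enzymes, 15 fell and 4 rose with TGF-β in scramble cells. The siRNA raised 11 and lowered 11 of them without stimulus. Xdh, xanthine dehydrogenase, measured 12.3, 16.996 and 13.5 CPM in unstimulated scramble libraries and 76.6, 77.9 and 84.3 CPM with the siRNA, a rise of 2.48 ± 0.12 (SE, adjusted p = 7.6e-14). Gstm7, another mu class gene, fell with TGF-β by 1.46 ± 0.093 (SE, adjusted p = 1.2e-11) and with the siRNA under TGF-β by 1.72 ± 0.13 (SE, adjusted p = 1.9e-10). Of 9 other aldehyde and alcohol dehydrogenases 6 fell and 1 rose with TGF-β. The gene that rose was Aldh18a1, which makes a precursor of proline, by 1.67 ± 0.051 (SE, adjusted p = 3.6e-17). Of 6 efflux transporters 5 fell and 1 rose with TGF-β, and Abcg2, a drug exporter, fell with the siRNA in each medium, by 1.14 ± 0.068, 1.10 ± 0.067 and 0.79 ± 0.071.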

How the data were processed

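RNA was sequenced from 18 libraries in 6 groups of 3. Per the submitters' processing notes, alignment to mm10 used HISAT2 2.2.1 and quantification used StringTie 2.1.6. The authors deposited estimated counts per gene and per transcript, with a column for each library. The sources used here give no annotation release, strand setting, dose or time. Whether those estimated counts split reads among paralogs is not stated, which bears on the Gstm, Gstt, Gstp and Ugt1a genes.

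Counts were rounded and entered 1 fit over all 18 libraries (edgeR 4.0.16, TMM normalisation, group means as coefficients), with 12 residual degrees of freedom for the quasi-likelihood tests. The filter filterByExpr, with a minimum count of 10, left 15832 of 57180 genes. Benjamini-Hochberg adjustment ran over all tested genes within each of 10 comparisons, with calls at an adjusted p under 0.05. A standard error is the log2 fold change divided by the square root of the F statistic. Coordinates and exon lengths came from GENCODE M21 (GRCm38), and promoters from RefSeq (GRCm38.p6). The fit was tested on simulated data in which few genes changed, in 1 group. The comparisons here called many more genes, so that test does not give their error rate.

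The members and all gene lists were chosen with earlier results of these data known. Library values are given for members among the 6 called genes of smallest p in each direction of a comparison, for NRF2, KEAP1 and their 6 targets, and for Itgav. From each list of other genes up to 3 called genes of smallest p were eligible to be named, and values of further members and of Cyp1a1 were added after they were seen. Alternatives were DESeq2 1.42.0, DESeq2 size factors within edgeR, a replicate block, fitting the compared groups alone, dropping the low-count filter, requiring a mean of 1 CPM, and leaving out each library in turn. Software was R 4.3.3, limma 3.58.1, Python 3.11.15, pandas 2.3.3, numpy 2.4.6 and matplotlib 3.10.9.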

Additional observations from a re-analysis of the deposited data

Results flagged for a closer look

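The siRNA effect differed between media by edgeR's test of the difference itself for 21 members between TGF-β and no stimulus and for 16 between PDGF-BB and no stimulus. Each value is the siRNA effect in stimulated cells minus that in unstimulated cells, on the log2 scale. Under TGF-β the greatest differences were Selenbp1 -1.32, Gstt1 -1.17, Maob -1.11, Gstm1 -1.002, Aldh3a1 -0.96, Nqo1 -0.86 and Mgst3 -0.84. They were followed by Maoa -0.73, Aldh3b1 -0.69, Aox1 -0.55, Ugt1a6a -0.48, Srxn1 -0.40, Gstt3 -0.39 and Ephx1 -0.39, and by Aldh9a1 -0.32, Gclc -0.29, Gclm -0.28, Gstm2 -0.26, Aldh3a2 -0.26 and Nfe2l2 -0.22. The difference was positive for Por 0.27. Under PDGF-BB the differences were positive for Nqo1 0.83, Gsta4 0.77, Mgst1 0.65, Gclm 0.58 and Gclc 0.57, and for Aox1 0.41, Nfe2l2 0.35, Maob 0.25, Maoa 0.24 and Srxn1 0.23. They were negative for Gstt3 -0.49, Gstt1 -0.46, Mgst3 -0.42, Aldh3a1 -0.34, Aldh7a1 -0.28 and Gstm2 -0.26. Of these calls, those of Nfe2l2, Gclc, Ugt1a6a, Aldh3a1, Por and Aldh9a1 under TGF-β and of Srxn1, Aldh3a1, Gstm2 and Maob under PDGF-BB ended without at least 1 library, as given above. Groups of 3 libraries were not tested for single outlying values.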

How the results depend on the processing

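All 10 counts of called members stayed within 1.5 times their main value under every alternative tried. Leaving out 1 library in turn gave 33 to 34 called members for TGF-β and 23 to 26 for PDGF-BB in scramble cells, and 30 to 33 for TGF-β against PDGF-BB. It gave 27 to 28 for the siRNA without stimulus, 24 to 29 under TGF-β and 28 to 30 under PDGF-BB. In siRNA cells it gave 35 to 36 for TGF-β and 24 to 26 for PDGF-BB, below the 27 of all libraries. For the differences of the siRNA effect it gave 19 to 23 for TGF-β and 13 to 17 for PDGF-BB. Of 275 calls over the 10 comparisons, 246 held without each library in turn and 29 ended without at least 1. DESeq2 ended 2 calls, no low-count filter ended 9 and added 9, and fitting only the compared groups ended 5 and added 7. A mean of at least 1 CPM added 3 and the replicate block 5. DESeq2 size factors changed none of the 380 results, and no called value changed sign.

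The labels do not say whether the replicate numbers pair the samples. Same-numbered libraries of different groups had deviations correlated between -0.16 and 0.21, above 0.1 for 5 of 45 pairs, and 9 of 18 libraries correlated best with their own number. Libraries unlike in both number and group were correlated between -0.23 and 0.23, above 0.1 for 9 of 90 pairs. These values do not decide whether the numbers pair the samples. With the replicate block 34 members were called for TGF-β in scramble cells, 30 for the siRNA under PDGF-BB, 36 for TGF-β in siRNA cells, and 22 and 17 for the differences of the siRNA effect, each 1 more than without it, and the other 5 counts were equal.

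Depth limits Mgst2, which was not tested, and Fmo1 and Gstt2, which lay under 10 CPM in all 6 groups. Fmo2, Fmo5, Aldh3a1, Selenbp1, Gsta4, Gstm4, Gstk1 and Ugt1a6a lay under 10 CPM in every TGF-β library, and Gstk1 in every group but the unstimulated siRNA cells. Paralogs and overlapping genes leave the counts of the Gstm, Gstt, Gstp1 and Ugt1a6a genes uncertain.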
